A study of Mus musculus with 12 samples.

Results

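The 9 genes described here encode the transcription factors that set and hold the identity of the hepatocyte, the main cell type of the liver: Hnf4a, Foxa1, Foxa2, Foxa3, Cebpa, Nr1h4, Nr0b2, Nr5a2 and Prox1. They were taken by name, with the brightest probe set of each symbol, and not by how they behaved; all 9 were measured among 11861 genes, each on 1 probe set. Expression was read on 12 arrays of spheroids, aggregates that primary hepatocytes form when they cannot attach to a surface. The cells came from inbred mice (strain C57BL/6), for which the labels name no allele, agent or age, as 2 male and 2 female preparations, each frozen as a pool of 3 mice. Every preparation was sampled 1, 7 and 14 days after spheroid formation, which gave 6 groups of 2 arrays: male day 1, male day 7, male day 14, female day 1, female day 7 and female day 14. A pool hides the spread between single mice, and p-values of the main fit measure the spread between pools. Those of a fit blocked by preparation measure what is left once differences between pools are taken out.

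These factors work as a mutually dependent network. HNF4A is a nuclear receptor that keeps a large share of liver genes on, the FOXA proteins are pioneer factors that open packed chromatin for others, and C/EBP alpha drives metabolic genes of the resting hepatocyte. FXR (Nr1h4) is the receptor for bile acids and turns on SHP (Nr0b2), a nuclear receptor without a DNA-binding domain that represses partners such as LRH-1 (Nr5a2) and HNF4A, which lowers bile acid synthesis. PROX1 is a homeobox protein that binds HNF4A and LRH-1 as a corepressor in liver and that also defines lymphatic endothelium.

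The stretch of 250 bases before the transcription start was read for each gene from RefSeq (mouse build GRCm38.p6), and 9 of 9 genes had at least 1 window, 14 in all. The windows of Nr0b2, Foxa1, Foxa2 and Nr5a2 are shown because the results below turn on these genes: the largest day changes are those of Nr0b2, Foxa2 and Nr5a2 among the members described, and the Foxa1 arrays did not overlap between the sexes, a difference that missed the adjusted threshold. They lie at chr4:133553126-133553375 (plus strand) for Nr0b2, chr12:57546112-57546361 (minus strand) for Foxa1, chr2:148046970-148047219 (minus strand, the most upstream of 3 starts) for Foxa2 and chr1:136960449-136960698 (minus strand, the more upstream of 2 starts) for Nr5a2. Each is printed 5′ to 3′ along the gene, and capitals mark matches to the motifs searched.
Nr0b2: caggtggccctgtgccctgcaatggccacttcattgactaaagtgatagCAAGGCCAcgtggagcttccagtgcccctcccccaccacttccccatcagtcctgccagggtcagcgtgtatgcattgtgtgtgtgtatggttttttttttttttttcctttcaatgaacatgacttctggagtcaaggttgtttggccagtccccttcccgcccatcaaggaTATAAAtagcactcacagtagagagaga
Foxa1: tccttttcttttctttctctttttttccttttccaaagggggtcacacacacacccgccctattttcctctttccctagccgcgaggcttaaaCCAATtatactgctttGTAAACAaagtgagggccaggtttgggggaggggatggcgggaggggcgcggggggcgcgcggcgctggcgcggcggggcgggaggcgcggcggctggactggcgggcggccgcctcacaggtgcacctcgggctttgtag
Foxa2: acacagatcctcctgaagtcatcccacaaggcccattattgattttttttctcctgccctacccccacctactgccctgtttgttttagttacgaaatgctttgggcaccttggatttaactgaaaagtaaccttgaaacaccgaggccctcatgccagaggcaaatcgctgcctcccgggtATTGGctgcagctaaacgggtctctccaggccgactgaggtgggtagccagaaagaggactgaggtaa
Nr5a2: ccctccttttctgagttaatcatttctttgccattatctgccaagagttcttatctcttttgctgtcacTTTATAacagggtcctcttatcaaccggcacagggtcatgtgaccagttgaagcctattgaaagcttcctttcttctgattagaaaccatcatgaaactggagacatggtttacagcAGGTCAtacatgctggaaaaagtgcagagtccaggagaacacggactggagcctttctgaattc
Motifs were searched on both strands, and matches of different motifs may overlap. The Nr0b2 window held an LRH-1 type match (CAAGGNCA, here CAAGGCCA) 201 to 194 bases before the start and a TATA box (TATAAA) at 28 to 23. The LRH-1 type letters stood in 1 member window and in 5.53% of all 32817 windows of the same length. The Foxa1 window held a forkhead match (TGTTTNC, here GTAAACA on the other strand) at 141 to 135, a motif in 3 member windows and in 17.8% of all, and a CCAAT box at 157 to 153. The Nr5a2 window held the nuclear receptor hexamer (AGGTCA) at 64 to 59, which stood in 2 member windows and in 14.0% of all, and TATAAA on the other strand at 181 to 176. The Foxa2 window shown held only a CCAAT box, on the other strand at 68 to 64. TATAAA stood in 6 member windows (12.4% of all windows) and CCAAT in 6 (33.8%). A C/EBP type motif (TTGCNNAA) stood in 1 member window and in 9.57% of all. The FXR type inverted repeat of the hexamer and the HNF4 type motif (CAAAGTCCA) stood in 0 member windows and in 0.00609% and 0.384% of all. GC content of the member windows ran from 43.2% to 68.8%, against a median of 52.4% over all windows. A match is a description of letters and not a bound site, and binding was not measured.

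The tissue label was set against its markers first. Of 15 hepatocyte markers, 15 were measured and 14 stood between 9.49 and 12.84 on every array (log2 level as deposited); the exception was Cyp2e1, a cytochrome P450 of the pericentral hepatocyte, at 2.87 to 7.94. Array medians lay between 7.47 and 7.53, and replicate arrays of a group had r = 0.984 to 0.99 across genes. Other cell types left RNA in the spheroids, and their lists moved with time. The summed linear level of 17 stellate cell and fibroblast markers was 481 to 3015 at day 14, against 3563 to 4002 at day 1, and that of 12 endothelial markers was 551 to 1067 at day 14, against 1130 to 1372 at day 1. The sum over 15 Kupffer cell and macrophage markers was 1866 to 3679 at day 14 and 1291 to 2013 at day 1, and that over 8 cholangiocyte markers was 1460 to 1837 at day 14 and 1473 to 1922 at day 1. In day 14 against day 1, 14.4% of all genes passed (limma). Of the markers, 12 of 17 stellate and 6 of 12 endothelial ones fell, and 2 of 15 Kupffer and 4 of 8 cholangiocyte ones rose. With 1 preparation left out these counts ran from 7 to 11, 2 to 5, 0 to 7 and 3 to 4, and 10 Kupffer markers passed with the preparation as a block. The 4 cholangiocyte markers that rose were Krt19, Krt23, Cldn7 and Epcam. Their day 1 ranges were 3.9 to 4.76, 3.41 to 4.18, 2.97 to 4.3 and 3.15 to 3.74. Every deposited probe set reached 4.79 on at least 1 array, so these 4 were present only through later days. Only 8 of 15 listed cholangiocyte markers were measured, and their share cannot be set against that of all genes. Among the defining genes, Lrat of stellate cells lay at 3.76 to 5.21 at day 14 and 6.51 to 7.98 at day 1. Clec4f of Kupffer cells lay at 4.10 to 5.58 at day 14 and 3.99 to 5.10 at day 1, unlike its list, of which 13 of 15 genes were higher at day 14 (median change 0.98). Of 12 lymphocyte markers 0 were among the deposited values, from which low probe sets may be missing. In such cultures fewer cells of a type and less RNA per cell cannot be told apart.

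In day 14 against day 1, 2 of the 9 factors passed the test (limma, Benjamini-Hochberg adjusted p under 0.05 over all 11861 genes): Nr5a2 rose and Foxa2 fell. The background was close to this, since 14.4% of all genes passed in that comparison (7.59% rose and 6.8% fell). The other 7 factors did not pass. In size the group moved about as other genes did. The median change of the 9 was -0.11 on the log2 scale, against 0.01 over all genes, and the median absolute change was 0.14 against 0.13. The earlier and later steps gave less: 0 of 9 passed in day 7 against day 1 (4.72% of all genes passed) and 0 of 9 in day 14 against day 7 (0.489%). At an unadjusted p under 0.05, 3 of 9 passed in day 14 against day 1 (28.6% of all genes), 3 in day 7 against day 1 (19.5%) and 0 in day 14 against day 7 (13.7%). Comparisons that share a day use the same arrays and are not independent of each other.

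**Figure D1:**
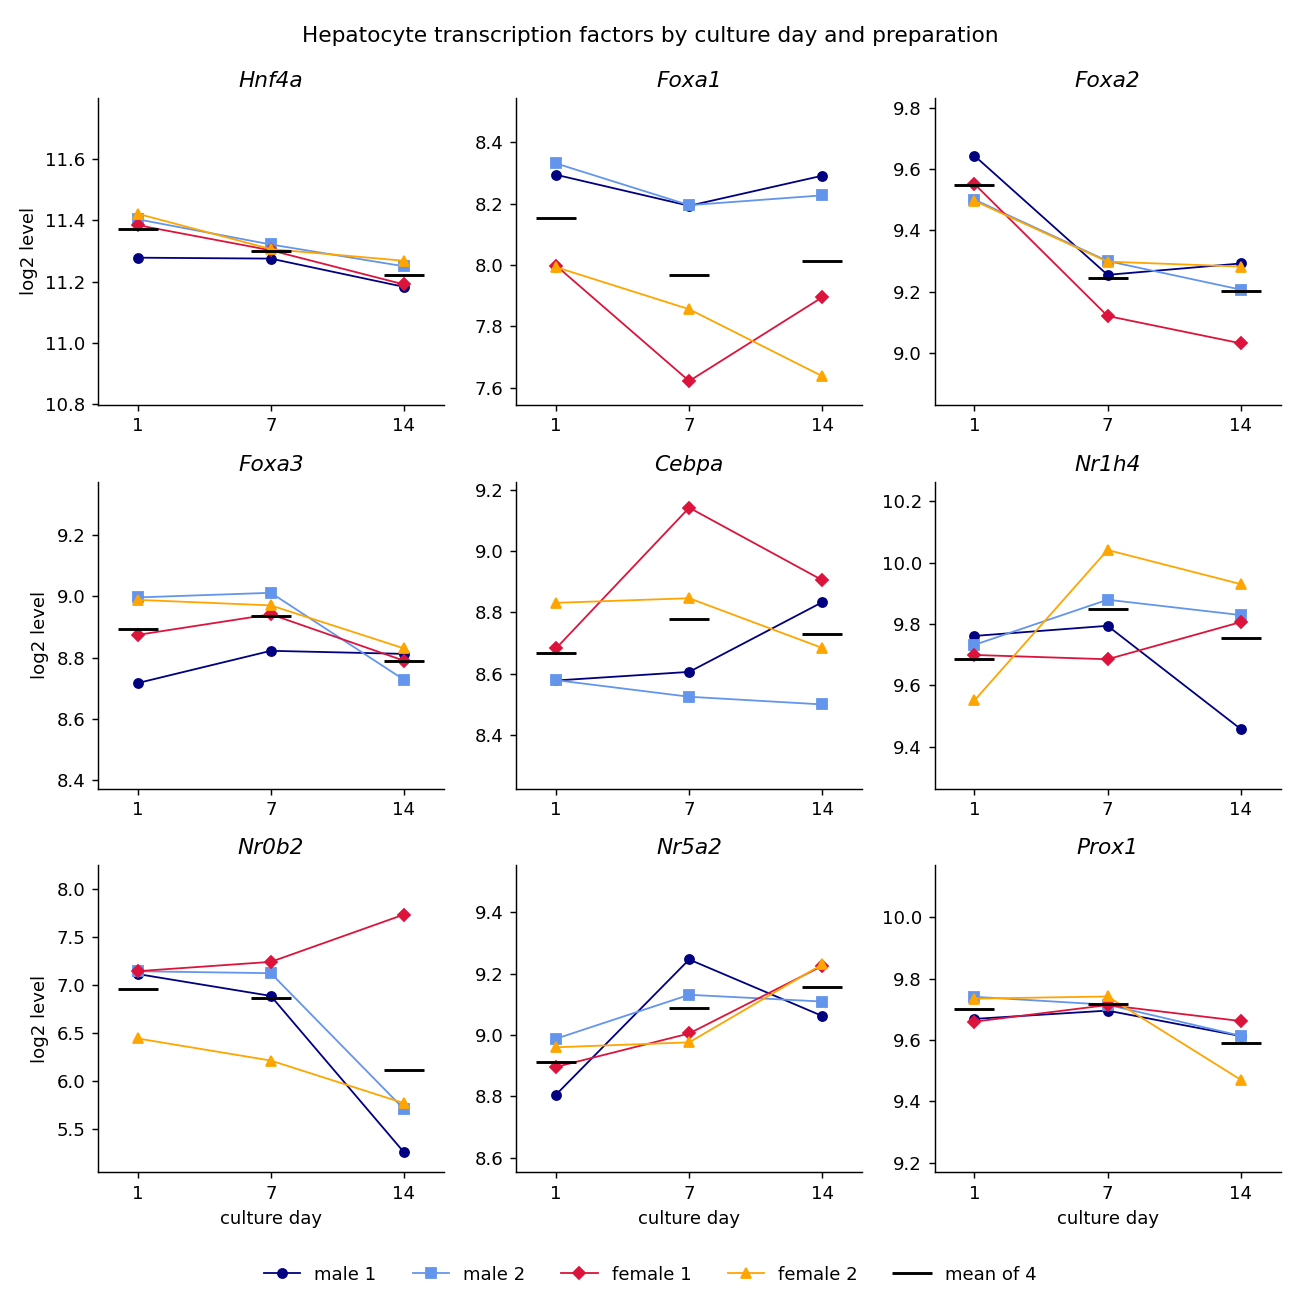
Log2 level (y axis) of each of the 9 factors at culture days 1, 7 and 14 (x axis), with 1 line per preparation, 2 male and 2 female, and a black bar at their mean. All panels span the same height except Nr0b2, whose axis is wider; Foxa2 is lower on all 4 day 14 arrays than on any day 1 array, Nr5a2 is higher, and the male Foxa1 lines lie above the female ones.

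Values below are given for male 1, male 2, female 1 and female 2, in this order. Hnf4a stood at 11.28, 11.40, 11.38 and 11.42 at day 1, at 11.28, 11.32, 11.30 and 11.31 at day 7, and at 11.18, 11.25, 11.19 and 11.27 at day 14. All 4 day 14 arrays lay below every day 1 and every day 7 array. Across all genes, 7.57% were lower without overlap in day 14 against day 1 and 2.35% in day 14 against day 7, and Foxa2 and Prox1 were the other members, 1 in each. The fall was small, at -0.15 ± 0.06 (SE, 95% interval -0.28 to -0.02, lower in 4 of 4 preparations), and it did not pass (limma adjusted p = 0.12). Mean levels over the 4 preparations were 11.37 ± 0.06, 11.30 ± 0.02 and 11.22 ± 0.04 (SD) on days 1, 7 and 14. Hnf4a was thus highest at day 1 and lowest at day 14, but no neighbouring pair of days passed (limma adjusted p = 0.554 for day 7 against day 1 and 0.611 for day 14 against day 7). Of 32 measured target genes of HNF4A, 2 rose and 3 fell in day 14 against day 1, with a median change of 0.02. That was 15.6% of the list, close to the 14.4% of all genes that passed. Fabp1, a fatty acid carrier, rose by 1.51 ± 0.27 and Apoa2, an apolipoprotein of HDL, rose by 0.61 ± 0.08 (limma adjusted p = 0.00744 and 0.00247). Apoa4, another apolipoprotein, fell by 0.59 ± 0.12 (limma adjusted p = 0.0121). With 1 preparation left out, 1 to 3 target genes passed; Fabp1 was lost without female 1 (0.0947) or without sex in the model (0.0771), Apoa2 without male 1 (0.0511) and Apoa4 in each of the 4 fits (0.0503 to 0.105).

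Foxa2, the FOXA factor known from work on fasting and bile acid transport, was the 1 member that fell. It stood at 9.64, 9.50, 9.55 and 9.50 at day 1, at 9.25, 9.30, 9.12 and 9.30 at day 7, and at 9.29, 9.21, 9.03 and 9.28 at day 14. Every day 7 and day 14 array lay below every day 1 array, while days 7 and 14 overlapped. Such a gap was found in 5.19% of all genes for day 7 against day 1, and Foxa2 was the 1 member with it. In day 14 against day 1 it fell by 0.34 ± 0.08 (SE, 95% interval -0.52 to -0.17, limma adjusted p = 0.0204), to 0.788 times its day 1 level. In day 7 against day 1 the change was -0.30 ± 0.08 and missed the threshold (adjusted p = 0.0661), and it passed when genes with a mean below 6 were left out (0.0382) or with a trended and robust fit (0.008). In day 14 against day 7 the change was -0.04 (adjusted p = 0.875), so days 7 and 14 did not differ beyond their spread. The day 14 call was lost without male 1, male 2 or female 1 (adjusted p = 0.18, 0.144 and 0.124), and was kept without female 2 (0.0461).

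Foxa1, another pioneer factor, stood at 8.29, 8.33, 8.00 and 7.99 at day 1, at 8.19, 8.20, 7.62 and 7.86 at day 7, and at 8.29, 8.23, 7.89 and 7.64 at day 14. It changed by -0.14 ± 0.08 in day 14 against day 1 (limma adjusted p = 0.276; the preparations ran from -0.36 in female 2 to 0 in male 1) and by -0.19 ± 0.08 in day 7 against day 1 (adjusted p = 0.227). The 3 days overlapped, and the male arrays lay above the female arrays at each. Foxa3, which in mice helps to keep blood glucose up in a long fast, stood at 8.72, 9.0, 8.87 and 8.99 at day 1, at 8.82, 9.01, 8.94 and 8.97 at day 7, and at 8.81, 8.73, 8.79 and 8.83 at day 14. Its changes were 0.04 in day 7 against day 1 and -0.15 ± 0.08 in day 14 against day 7 (adjusted p = 0.47) and -0.10 ± 0.08 in day 14 against day 1 (adjusted p = 0.444), and none passed. Of 17 measured FOXA target genes, 0 rose and 2 fell in day 14 against day 1 (median 0.01). That was 11.8% of the list, against 14.4% of all genes. Afp, the fetal plasma protein, fell by 0.35 ± 0.10, and Igfbp1, a secreted binder of insulin-like growth factors, fell by 0.27 ± 0.06. Both lost their call with any 1 preparation left out (limma adjusted p = 0.0759 to 0.249).

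Cebpa stood at 8.58, 8.58, 8.68 and 8.83 at day 1, at 8.61, 8.52, 9.14 and 8.85 at day 7, and at 8.83, 8.50, 8.91 and 8.68 at day 14. The 3 days overlapped, and the 2 preparations of each sex did not move together: male 1 was higher at day 14 than at day 1 while male 2 was lower, and female 1 was higher while female 2 was lower. Its change was 0.06 ± 0.10 in day 14 against day 1 (limma adjusted p = 0.747) and 0.11 ± 0.10 in day 7 against day 1 (adjusted p = 0.616), so no order of the days held. Of 17 measured targets of C/EBP alpha, 0 rose and 2 fell in day 14 against day 1 (median -0.10), and 0 passed with any 1 preparation left out. They were Fbp1, an enzyme of glucose production, which fell by 0.34 ± 0.09 (limma adjusted p = 0.0482), and Igfbp1, which is on the FOXA list too. The 2 made up 11.8% of the list, against 14.4% of all genes.

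Nr1h4, the bile acid receptor gene, stood at 9.76, 9.73, 9.70 and 9.55 at day 1, at 9.79, 9.88, 9.68 and 10.04 at day 7, and at 9.46, 9.83, 9.81 and 9.93 at day 14. Day ranges overlapped throughout. Male 1 was the 1 preparation that was lower at day 14 than at day 1, and the change over all was 0.07 ± 0.11 (limma adjusted p = 0.728). In day 7 against day 1 it was 0.16 ± 0.11 (adjusted p = 0.454), and in day 14 against day 7 it was -0.09 (adjusted p = 0.769).

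Nr0b2, which encodes SHP, had the widest spread of the 9. It stood at 7.12, 7.14, 7.15 and 6.44 at day 1, at 6.89, 7.13, 7.24 and 6.21 at day 7, and at 5.26, 5.71, 7.74 and 5.77 at day 14. At day 14 both male arrays and female 2 lay below every earlier array of any preparation, while female 1 lay above all of them. The change in day 14 against day 1 was -1.86 in male 1, -1.44 in male 2, 0.59 in female 1 and -0.67 in female 2. Averaged over the sexes it was -0.84 ± 0.41 (95% interval -1.78 to 0.09) and did not pass (limma adjusted p = 0.219). A fit blocked by preparation gave the same change a smaller standard error, 0.196, and it passed (limma adjusted p = 0.0354). In that fit 14% of all genes passed. Its standard error leaves out differences between preparations and draws on all 3 days. Without female 1 the change was -1.16. Of all genes, 4.27% had a larger absolute change between these days. In day 7 against day 1 the change was -0.10 ± 0.41 (adjusted p = 0.931), and in day 14 against day 7 it was -0.75 ± 0.41 (adjusted p = 0.476).

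Mean levels of several gene lists, both of other cell types and of hepatocytes, were also highest in female 1 at day 14. At day 14 the mean log2 level of the stellate and fibroblast list was 4.08, 4.94, 6.50 and 5.89, that of the endothelial list 4.54, 4.73, 5.71 and 5.41, and that of the Kupffer and macrophage list 6.22, 5.76, 7.25 and 5.49. The mean of the cholangiocyte list was 6.5, 6.82, 6.95 and 6.8, but its summed linear level was highest in male 2, at 1837 against 1753 in female 1. The pancreas and intestine mean was 5.03 in male 1 and 5.01 in female 1, and its summed linear level was 101 and 109. For the hepatocyte markers the day 14 mean was 11.42, 11.5, 11.78 and 11.64, and for the other hepatocyte factors 8.13, 8.14, 8.24 and 8.18. The summed linear level of the hepatocyte markers was highest in female 2, at 70468 against 68169 in female 1. The part of these lists in the Nr0b2 result was not tested.

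The genes of the FXR and SHP axis, the bile acid and lipid genes that these receptors act on, were followed over the same days. Of 27 listed, 22 were measured, and 1 rose and 5 fell in day 14 against day 1 (27.3% passed, against 14.4% of all genes). The median change was -0.16. The list mixes genes turned on and genes held down along this axis, so neither value reads as activity of the axis. Pltp, a phospholipid transfer protein and a target that FXR turns on, was named after its values were seen, as the 1 that rose; it rose by 0.86 (limma adjusted p = 0.0358). Vldlr, the receptor for very low density lipoprotein, fell by 0.95 ± 0.14 (adjusted p = 0.00396). The detoxifying enzyme genes Ugt2b1 and Sult2a1 belong to families with near-identical copies, so their probe sets may cross-read; they fell by 0.99 ± 0.21 and 1.01 ± 0.27 (adjusted p = 0.0169 and 0.0393). Sult2a1 stood at 5.01, 4.30, 6.24 and 5.22 at day 14, against 4.79, 4.04, 7.74 and 8.23 at day 1. The male values were low at both days. Sult2a1 changed by 0.22 in male 1 and 0.26 in male 2, against -1.5 in female 1 and -3.01 in female 2. The averaged fall thus came from the female preparations. The sex difference of this change did not pass, since 0% of all genes passed in the test of male change minus female change (limma). The averaged fall of Sult2a1 no longer passed when blocked by preparation (limma adjusted p = 0.052) or without sex in the model (0.556). The count was 1 without male 1, 0 without male 2, 3 without female 1 and 2 without female 2. By preparation, the median change of the 22 genes was -0.26 in male 1, -0.07 in male 2, 0.24 in female 1 and -0.19 in female 2. Female 1 had 15 genes higher and 7 lower, and the other 3 preparations had 6 to 10 higher and 12 to 16 lower. By mean log2 level, this was not particular to the FXR and SHP axis. In female 1 the mean of the C/EBP alpha targets was 10.38 at day 14 and 10.35 at day 1. That of the FOXA targets was 11.06 at day 14 and 10.99 at day 1. Both means were lower at day 14 than at day 1 in the other 3 preparations. The HNF4A and LRH-1 target means were higher at day 14 in female 1 and also in male 2 (10.03 against 9.95, and 8.5 against 8.44). Summed linear levels went otherwise. In female 1 the C/EBP alpha sum was 49952 at day 14 and 50303 at day 1, and the FOXA sum 55329 and 56536. In female 2 both sums were higher at day 14.

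**Figure D2:**
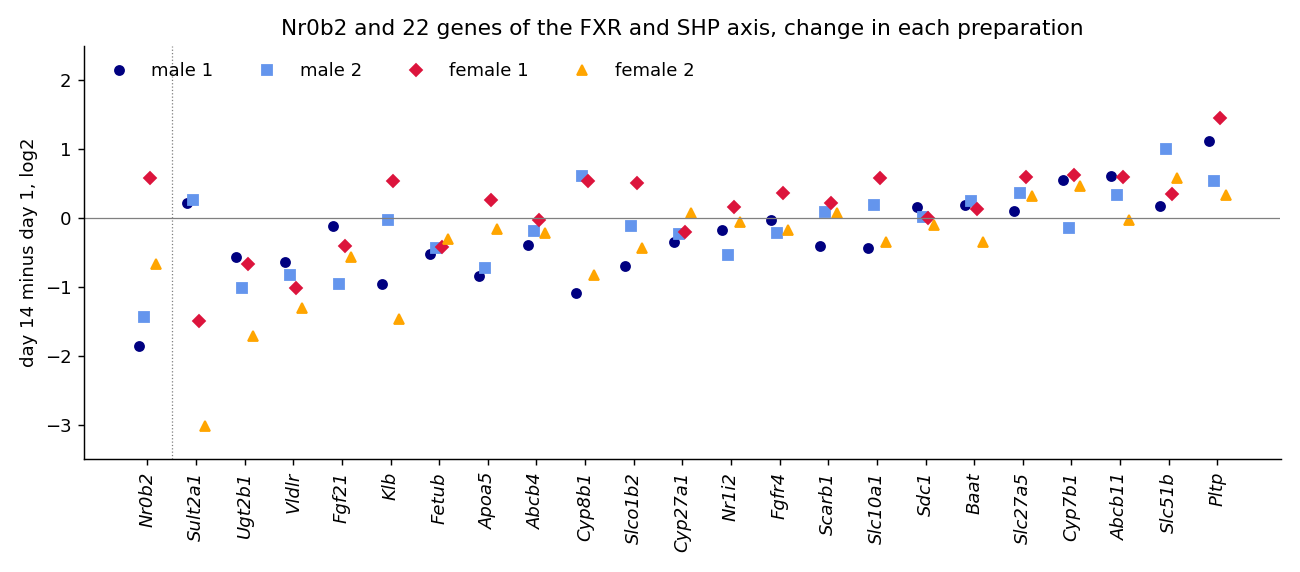
Change in log2 level in day 14 against day 1 (y axis) for Nr0b2 and the 22 measured genes of the FXR and SHP axis (x axis), with 1 point per preparation. Points above 0 are higher at day 14; Nr0b2 lies at 0.59 in female 1 and between -1.86 and -0.67 in the other preparations.

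Nr5a2, the gene of LRH-1, a nuclear receptor that drives bile acid and cholesterol genes, was the 1 member that rose. It stood at 8.81, 8.99, 8.90 and 8.96 at day 1, at 9.25, 9.13, 9.01 and 8.98 at day 7, and at 9.06, 9.11, 9.23 and 9.23 at day 14. All 4 day 14 arrays lay above every day 1 array, as in 8.25% of all genes, while day 7 overlapped both. The rise in day 14 against day 1 was 0.24 ± 0.06 (95% interval 0.10 to 0.39, 1.18-fold, limma adjusted p = 0.0334), in 4 of 4 preparations. The call was lost when blocked by preparation (adjusted p = 0.0609), without sex in the model (0.0676) and with any 1 preparation left out (0.118 to 0.214). In day 7 against day 1 the change was 0.18 ± 0.06 (adjusted p = 0.16) and in day 14 against day 7 it was 0.07 (adjusted p = 0.704), so day 14 and day 7 did not differ beyond their spread. Of 11 measured LRH-1 targets, 0 rose and 1 fell in day 14 against day 1 (median 0). That was 9.09% of the list, against 14.4% of all genes. The gene was Plk3, a kinase of the stress response, with a change of -0.44 ± 0.08 (limma adjusted p = 0.00812). Its call was lost without male 2, female 1 or female 2.

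Prox1 stood at 9.67, 9.74, 9.66 and 9.74 at day 1, at 9.70, 9.72, 9.71 and 9.74 at day 7, and at 9.61, 9.61, 9.66 and 9.47 at day 14. The change in day 7 against day 1 was 0.02 (limma adjusted p = 0.926), and all 4 day 14 arrays lay below every day 7 array. The change was -0.13 ± 0.06 in day 14 against day 7 and -0.11 ± 0.06 in day 14 against day 1, and neither passed (adjusted p = 0.408 and 0.276). Because Prox1 also marks lymphatic endothelium, the levels of endothelial genes stand beside it. Lyve1 was at 4.98 to 7.26 at day 14 and 7.25 to 8.08 at day 1, Flt4 at 7.40 to 7.96 at day 14 and 7.06 to 7.48 at day 1, and Pdpn at 4.31 to 4.95 at day 14 and 3.98 to 4.65 at day 1. Their part in the Prox1 values was not tested.

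**Figure D3:**
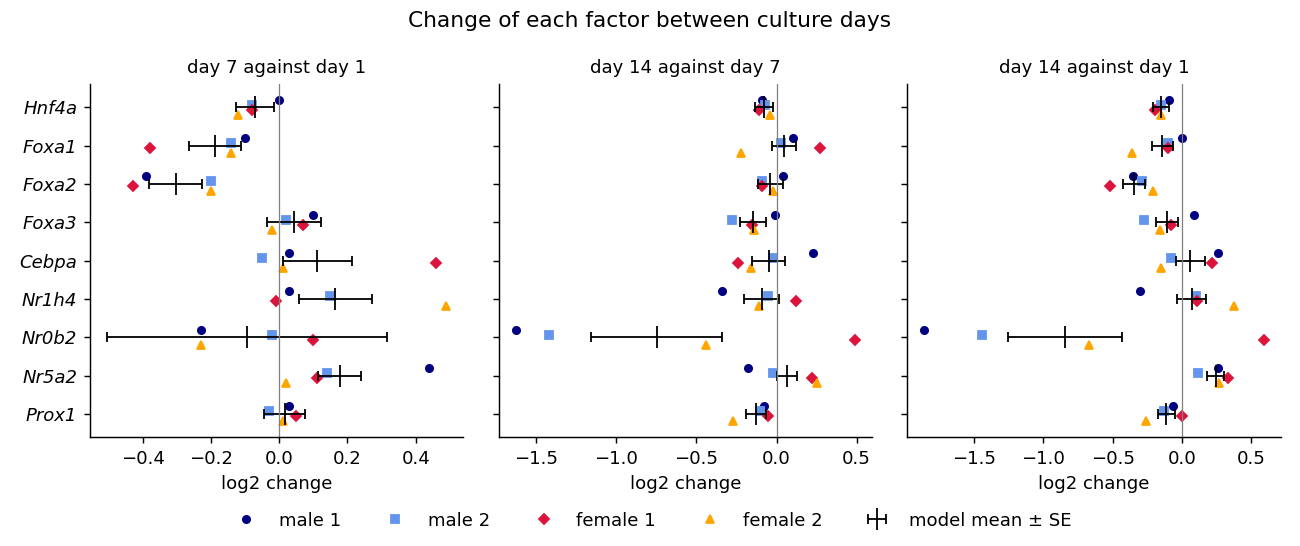
Change in log2 level of the 9 factors (y axis) between days, 1 panel per comparison, with 1 point per preparation and the fitted change with its standard error. The horizontal axes differ between panels; Foxa2 is lower and Nr5a2 higher in day 14 against day 1 in 4 of 4 preparations.

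Over the 12 arrays the members tracked each other only in part. The highest correlations between members were those of Hnf4a with Foxa3 (r = 0.68) and with Foxa2 (r = 0.63), and the lowest were those of Foxa2 with Nr5a2 (r = -0.75) and Foxa1 with Cebpa (r = -0.68). Arrays of one preparation share their cells and arrays of one day share their culture age, so these values only describe the set. The 2 genes with the highest r with each member were named by the same measure, with predicted, Rik, Gm and LOC names left out. They were Clec2d (r = 0.965) and Ptpmt1 (0.954) for Hnf4a, Reg3b (0.949) and Fezf1 (0.946) for Foxa1, Fmnl2 (0.94) and Rbm27 (0.933) for Foxa2, and Med25 (0.86) and Tle2 (0.852) for Foxa3. For Cebpa they were Mrps2 (0.914) and Chrnb4 (0.914), for Nr1h4 Ndufb5 (0.899) and Plcl1 (0.879), and for Nr0b2 Fam20a (0.865) and Neu3 (0.864). Nr5a2 was most like Osbpl3 (0.92) and Ivns1abp (0.887), and Prox1 most like Fam122a (0.951) and Arhgef19 (0.903).

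Between the sexes, Foxa1 was the 1 member whose arrays were higher in males without overlap. Its 6 male arrays ran from 8.19 to 8.33 and its 6 female arrays from 7.62 to 8.00, a gap in that direction found in 1.8% of all genes. The preparation means were 8.26 and 8.25 in males, against 7.84 and 7.83 in females. The difference over all days, male minus female, was 0.42 ± 0.06 (95% interval 0.27 to 0.57, 1.34-fold), with an unadjusted p of 0.00113 from limma, and it missed the threshold after adjustment (0.0796). It passed when genes with a mean below 6 were left out (0.0299) or with a trended and robust fit (0.00364). By day it was 0.32 at day 1, 0.46 at day 7 and 0.49 ± 0.11 at day 14 (limma adjusted p = 0.257, 0.144 and 0.0836). Over all days 0 of 9 members passed, against 0.177% of all genes, and 2 of 9 had an unadjusted p under 0.05, against 19.8%.

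Cebpa, the other of these, lay lower in males at 8.50 to 8.83, against 8.68 to 9.14 in females, and the ranges overlapped. Its difference was -0.24 ± 0.08 (limma adjusted p = 0.226). For Nr0b2 the difference over all days was -0.22 ± 0.42 (adjusted p = 0.814), at day 14 it was -1.27 ± 0.58 (adjusted p = 0.355), and the day 14 value was -2.25 without female 2 (adjusted p = 0.039) and -0.29 without female 1 (adjusted p = 0.642). Without female 1 the difference over all days turned to 0.40. Within the days, 0 of 9 members passed at day 1, day 7 or day 14, where 0.767%, 0.354% and 1.06% of all genes did. In the sex difference in day 14 against day 1, male change minus female change, 0 of 9 members and 0% of genes passed (limma; 6.87% of genes at an unadjusted p under 0.05). The widest was that of Nr0b2, -1.60 ± 0.82 (adjusted p = 0.794, or 0.291 with the preparation as a block).

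**Figure D4:**
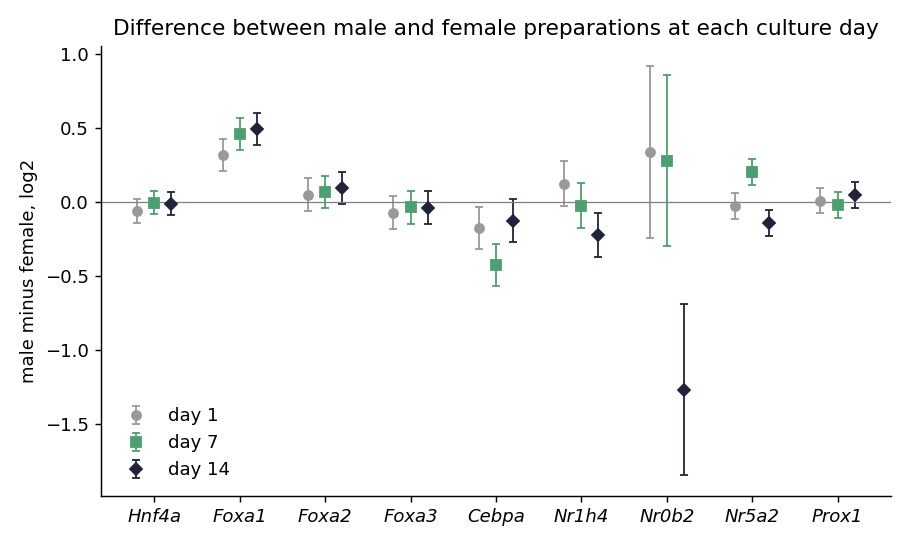
Difference in log2 level, male minus female (y axis), for the 9 factors (x axis) at days 1, 7 and 14, with bars for the standard error. Foxa1 lies above 0 at each day, at 0.32, 0.46 and 0.49, and Nr0b2 has the widest bars and lies at -1.27 at day 14.

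Other transcription factors of the hepatocyte were counted in the same way. Of 56 listed, 48 were measured, and 6 rose and 7 fell in day 14 against day 1 (27.1%, against 14.4% of all genes), with a median change of -0.04. Mlxipl (ChREBP), which turns on sugar-driven lipid synthesis, stood at 9.21, 9.26, 9.56 and 9.33 at day 14, against 9.78, 10.10, 10.32 and 10.38 at day 1. It fell by 0.80 ± 0.09 (limma adjusted p = 0.00103) and passed with any 1 preparation left out. Lhx2, which is on the stellate list too, fell by 1.46 ± 0.33 (0.021), and Nr1d1, a repressor of the circadian clock, rose by 0.77 ± 0.19 (0.0268); each lost its call in 3 of 4 fits that left out 1 preparation. Rxra, the partner with which FXR binds DNA, and the fatty acid regulator genes Ppara and Creb3l3 were picked after their values were seen, and they rose by 0.22, 0.49 and 0.56 (limma adjusted p = 0.0371, 0.023 and 0.00449). Rxra no longer passed with the preparation as a block (0.064), and each of these 3 lost its call in at least 2 of the fits that left out 1 preparation. The count of 13 was 2 to 4 in those fits.

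**Figure D5:**
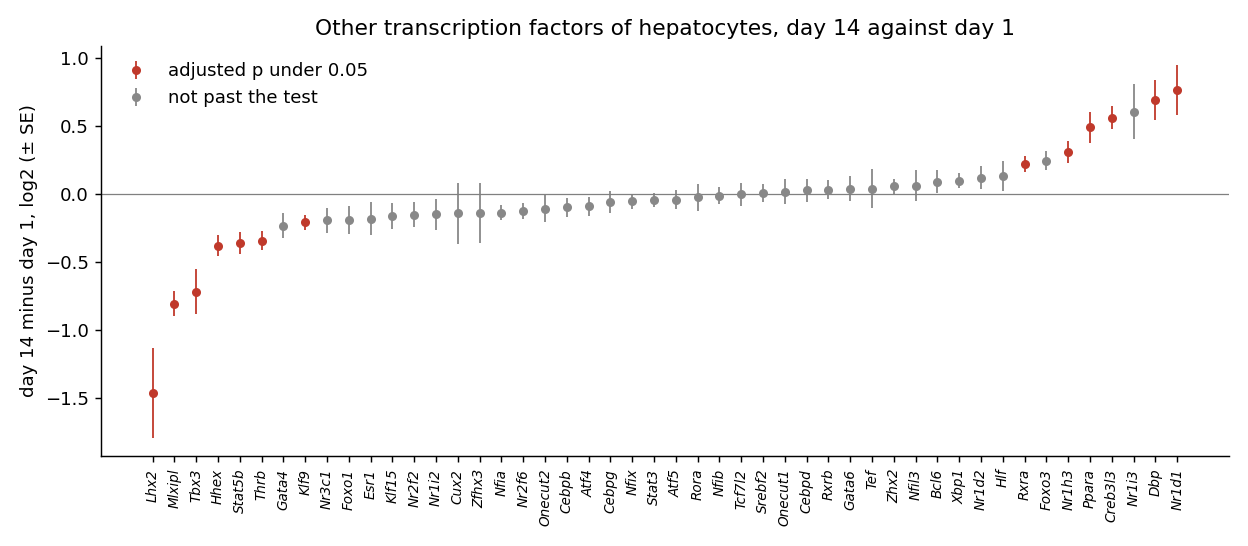
Change in log2 level in day 14 against day 1 (y axis) of the 48 measured hepatocyte factors beside the 9 (x axis), with bars for the standard error and those that passed in red. Lhx2, which is also on the stellate and fibroblast list, lies lowest, at -1.46, and Nr1d1 highest, at 0.77.

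Factors of biliary, progenitor and mesenchymal cells also moved, 3 up and 5 down of 30 measured (26.7%, median -0.09), and 6 passed in each fit that left out 1 preparation. Elf3, an epithelial ETS factor, stood at 6.52, 6.30, 6.32 and 6.44 at day 14, against 5.08, 5.43, 5.03 and 4.92 at day 1. It rose by 1.28 ± 0.10 (limma adjusted p = 0.000209), Tead2, a partner of YAP, rose by 1.29 ± 0.13 (0.000754), and Id3, an inhibitor of helix-loop-helix factors, fell by 1.55 ± 0.18 (0.00123). Of 8 measured cholangiocyte markers 4 rose, each below 4.79 on every day 1 array, as given above. Of 17 stellate and fibroblast markers 12 fell. The part of both lists in the counts of these factors was not tested. Among all genes, 14.4% passed in day 14 against day 1. No gene of the hepatocyte marker list passed in day 14 against day 1, of 15 measured (limma). Cyp2e1 had the largest change, -1.16 ± 0.67 (limma adjusted p = 0.301). Several of these markers lay close to 12.84, the highest value on any array, such as Trf at 12.8 to 12.84 and Alb at 12.71 to 12.78. Both are also on the HNF4A, C/EBP alpha and FOXA target lists. Whether changes are compressed at that end of the scale was not tested.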

How the data were processed

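Total RNA from 12 spheroid cultures was labelled with biotin and read on arrays. The authors deposited log2 values, which the submitters' processing notes tie to RMA, Transcriptome Analysis Console 4.0 and Partek 7.0, without their roles or order. For the array build and filters, nothing was given in the sources read. Every probe set reached 4.79 on at least 1 array, so low probe sets may be missing. No member fell below 5.26. A single symbol was paired with 11889 of 13081 probe sets and no symbol with 1192; for 19 symbols on several probe sets the brightest was kept, which left 11861 genes. Precision is set by the number of arrays, and a day change had a median standard error of 0.0946.

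Tests ran in limma 3.58.1 under R 4.3.3 (tables read with data.table, version 1.17.8): 1 model with 6 sex and day means (eBayes without trend, not robust), two-sided, Benjamini-Hochberg adjusted over all genes at 0.05. A day change is averaged over the sexes; sex over all days used preparation means, 2 against 2. An SD on a level is over the 4 preparations. The same pools were sampled at each day, per the labels, so preparations pair the days; their deviations between days correlated at 0.04 to 0.32, and a fit with the preparation as a block was an alternative. The scripts were tested on simulated data. Of each list up to 3 genes are named, the largest changes in day 14 against day 1 that passed, or the largest where none passed. Per member the 2 genes with the highest correlation with it are named, with predicted, Rik, Gm and LOC names left out. Pltp, Rxra, Ppara and Creb3l3 were added after their values were seen. The members and lists were chosen with earlier results of these data known. Target lists overlap and come from general knowledge.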

Additional observations from a re-analysis of the deposited data

Results flagged for a closer look

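At day 1, Nr0b2 in female 2 stood at 6.44, apart from the other 3 preparations, which lay within 7.12 to 7.15. The gap to the nearest was 0.957 of the range of the 4 values, above the critical value of Dixon's test at 95%. Of 27 groups of 4 values tested (9 genes at 3 days), 1 was picked out in this way, and chance alone picks out about 1 in 20.

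In day 14 against day 7, Nr5a2 was lower in both male preparations and higher in both female ones, a male change minus female change of -0.34 ± 0.12 (SE). The test of this difference was added after the data were seen, and it did not pass (limma, unadjusted p = 0.0238, adjusted p = 0.999).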

How the results depend on the processing

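Each comparison was refitted under 12 other settings. In day 14 against day 1 the main fit called 2 members, and 1 passed without sex in the model; with 1 preparation left out it was 0 to 1. The fit with the replicate block called 2 members, Foxa2 and Nr0b2, so it gained Nr0b2 and lost Nr5a2, and it changed no other call of a member. A trended and robust fit called 3, adding Hnf4a (limma adjusted p = 0.0188). Leaving out genes with a mean below 6, or the trended and robust fit, called 1 member in place of 0 in some comparisons. This was Foxa2 in day 7 against day 1, and Foxa1 in male against female over all days and at day 14. With 1 preparation left out, the day 14 sex difference ran from 0.36 to 0.62 for Foxa1 and from -2.25 to -0.29 for Nr0b2. None of the values that changed sign had passed the test, and all of them came from leaving out 1 preparation. They ran from -0.0298 to 0.16 for Cebpa and from -0.0298 to 0.17 for Nr1h4 in day 14 against day 1, from -0.11 to 0.0142 for Cebpa and from -0.0764 to 0.17 for Foxa1 in day 14 against day 7, from -0.83 to 0.40, -0.0157 to 0.69 and -0.24 to 0.79 for Nr0b2 in male against female over all days, at day 1 and at day 7, from -0.29 to 0.0386 for Cebpa in male against female at day 14, and from -0.13 to 0.24 for Cebpa in the sex difference in day 14 against day 1. The causes were not tested. Over all genes the count called ran from 494 to 2183 in day 14 against day 1 (1706 in the main fit), from 40 to 956 in day 7 against day 1 (560), from 0 to 309 in day 14 against day 7 (58), from 3 to 974 in male against female over all days (21), from 3 to 292 at day 1 (91), from 4 to 178 at day 7 (42), from 11 to 411 at day 14 (126) and from 0 to 17 in the sex difference in day 14 against day 1 (0). With 2 pools per sex, leaving out 1 leaves a lone pool that is assumed to vary like the others. Changes near the median standard error of 0.0946 cannot be resolved here.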

Other observations

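RNA of genes whose proteins the 9 factors recruit was measured as well. Of 20 measured coregulators, 1 rose and 3 fell in day 14 against day 1 (median change 0.01, as for all genes). That was 20% of the list, against 14.4% of all genes. Tle1, a Groucho corepressor, stood at 8.27, 8.18, 8.23 and 8.42 at day 14 in male 1, male 2, female 1 and female 2, against 8.79, 8.94, 9.01 and 9.06 at day 1. All 4 day 14 arrays lay below every day 1 array. It fell by 0.68 ± 0.08 (limma adjusted p = 0.00102) and passed with any 1 preparation left out. The steroid receptor coactivator genes Ncoa3 and Ncoa2 fell by 0.35 ± 0.09 and 0.29 ± 0.06 (limma adjusted p = 0.0355 and 0.00984). Ncoa3 no longer passed with the preparation as a block (0.0542), and Ncoa2 lost its call with any 1 preparation left out (0.0775 to 0.127). With 1 preparation left out 1 to 2 coregulators passed, and 2 passed with the preparation as a block.

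Markers of pancreas and intestine, where several of these factors also act, were at 3 of 14 measured and 0 passed. The largest change was that of Vil1, an actin-bundling protein of the brush border, at 0.62 ± 0.18 in day 14 against day 1 (limma adjusted p = 0.0545); with the preparation as a block 1 of the 3 passed.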
